A study of Mus musculus with 18 samples.

Results

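The genes described here encode the hypoxia-inducible factor (HIF) α subunits, the prolyl hydroxylases that mark those subunits for destruction, the glucose transporters and enzymes of glycolysis, and further genes that HIF is known to switch on when oxygen is low. They were taken by name, as a list of 36 genes, and no threshold on a measured value entered the choice, although earlier results of these data were known when the list was made. A gene counted as measured where the array platform annotates at least 1 probe set to it and to no other gene, and where it had several, its level was read from the one whose signal averaged highest over all arrays. Of the 36 genes, 32 were measured, among 18193 genes in all. *Gapdh* and *Bnip3l* were left out because their probe sets carried several symbols, and *Gpi1* and *Eno1* because no probe set named them. Of the 32 genes, 19 had more than 1 probe set, 69 probe sets in all.

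Total RNA was measured on 18 Affymetrix mouse arrays, from 6 groups of 3 cultures. The groups were *c*35 cells with TCDD, BaP or DMSO, and wild-type (WT) cells with the same treatments. WT cells were Hepa-1c1c7, a mouse hepatoma line. *c*35 is a derivative of that line whose aryl hydrocarbon receptor (AHR) carries a missense change and cannot bind DNA. *c*35 is a single mutant line, so the AHR mutation and any other difference between the lines cannot be told apart. TCDD is the dioxin used as a potent AHR ligand, given at 5 nM, and BaP is benzo[a]pyrene, a polycyclic hydrocarbon that is both an AHR ligand and a substrate of the enzymes AHR induces, given at 5 µM. The TCDD dose of the WT cultures was taken from the study's methods. All cultures were harvested after 8 hr, and cells given only the vehicle, DMSO, are called naive. No hypoxia treatment is named for any group.

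As background, HIF is a pair of an oxygen-sensitive α subunit and ARNT, and ARNT is also the partner that AHR needs to bind DNA. When oxygen is present, prolyl hydroxylases modify the α subunit, which is then degraded, and when oxygen is scarce the α subunit accumulates and raises the transcription of glucose transporters and of most glycolytic enzymes. AHR with ARNT recognizes a core of GCGTG, and HIF with ARNT mainly a core of ACGTG. HIF can also use GCGTG, so a core alone does not tell which factor binds it.

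Across the series, arrays of 1 group correlated at 0.993 to 0.998 over all probe sets, and arrays of different lines at 0.969 to 0.980. The signal difference between the 3′ and 5′ control probe sets of *Actb*, a measure of RNA integrity and labelling, was 0.30 to 0.53 log2 in *c*35 cells and 0.73 to 1.38 log2 in WT cells, so the lines did not overlap, and the highest value was that of WT DMSO replicate 1. The part of this *Actb* value in the line differences was not tested beyond a fit that took it as a covariate. Because the lines did not overlap in it, that fit cannot fully separate it from the line. Of 8 measured genes of the AHR battery, the set of detoxification genes that AHR is best known to induce, 6 were called higher with TCDD and 6 with BaP in WT cells, and none with either ligand in *c*35 cells. However, 3 *c*35 arrays, DMSO replicates 1 and 2 and BaP replicate 3, stood apart from the other 6 in this battery. *Cyp1a1*, its best-known member, read 8.32 to 8.34 log2 on those 3 arrays and 4.87 to 6.23 on the other *c*35 arrays, and *Tiparp* 10.30 to 10.42 against 9.13 to 9.38, and *Cyp1b1* and *Xdh* were also higher on the 3 without overlap. In these genes BaP replicate 3 thus lay with DMSO replicates 1 and 2, and DMSO replicate 3 did not. Why was not tested. Over all probe sets the 3 arrays correlated at 0.9957 to 0.9977 with the other *c*35 arrays, which correlated with each other at 0.9954 to 0.9975. Each ligand result in *c*35 cells and each difference in response between the lines is therefore also given without these 3 arrays. That fit was chosen after seeing the data. It leaves 1 naive *c*35 array, DMSO replicate 3, and assumes that it varies like the arrays of the other groups. In the battery genes that set the 3 arrays apart, this array lay with the remaining ligand arrays. Whether it serves as a naive baseline was not tested. Of the 32 genes, *Ndrg1*, *Pfkfb3* and *Egln3* were higher and *Bnip3*, *Pgam1*, *Aldoc* and *Pfkp* lower on the 3 arrays than on every other *c*35 array. Of 9 hepatocyte markers, *Alb* was lower in naive *c*35 than in naive WT cells (-2.46 log2) and *Fgb* higher by 0.95 log2. The summed hepatocyte marker signal was 12.67 to 12.82 log2 in *c*35 arrays and 13.99 to 14.19 log2 in WT arrays. Of 6 leukocyte markers, *Cd68* was called higher in *c*35 cells. Their summed signal was 8.98 to 9.34 log2 in *c*35 and 8.11 to 8.44 log2 in WT arrays. Such sums follow the brightest genes. In naive cells 7 of the 9 hepatocyte markers were not called, and the median difference was -0.04 log2. For the leukocyte markers 5 of 6 were not called, with a median of 0.04 log2. Of 6 fibroblast markers 1 was called higher and 1 lower, and of 5 endothelial markers none was called in naive cells. The part of these markers in the results was not tested. In RNA of whole cultures, fewer cells of a type and less RNA per cell cannot be told apart.

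The upstream sequences of the members that responded to a ligand in WT cells are shown first, since their letters can be set beside the responses described further on. Each is the 250 bases before a transcription start in RefSeq (GRCm38.p6), printed 5′ to 3′ on the strand of the gene. Capitals mark GCGTG and ACGTG on either strand, so that CACGC and CACGT are the same cores read on the other strand, and CACGTG holds ACGTG on both strands with the matches overlapping. *Ddit4* lies at chr10:59951771-59952020, *Pfkfb3* at chr2:11553930-11554179 for its first start and chr2:11502091-11502340 for its second, and *Bnip3* at chr7:138909507-138909756, all on the minus strand.
Ddit4: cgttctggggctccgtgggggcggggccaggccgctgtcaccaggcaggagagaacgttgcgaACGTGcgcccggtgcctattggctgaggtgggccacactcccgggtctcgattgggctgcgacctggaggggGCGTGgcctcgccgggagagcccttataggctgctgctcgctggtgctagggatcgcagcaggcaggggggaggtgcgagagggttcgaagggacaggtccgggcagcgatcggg
Pfkfb3, first start: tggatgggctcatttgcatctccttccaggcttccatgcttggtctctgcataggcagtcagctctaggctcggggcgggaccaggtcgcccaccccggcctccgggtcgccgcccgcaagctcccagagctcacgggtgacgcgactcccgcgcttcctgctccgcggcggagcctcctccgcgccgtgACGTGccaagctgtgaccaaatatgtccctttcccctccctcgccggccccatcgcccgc
Pfkfb3, second start: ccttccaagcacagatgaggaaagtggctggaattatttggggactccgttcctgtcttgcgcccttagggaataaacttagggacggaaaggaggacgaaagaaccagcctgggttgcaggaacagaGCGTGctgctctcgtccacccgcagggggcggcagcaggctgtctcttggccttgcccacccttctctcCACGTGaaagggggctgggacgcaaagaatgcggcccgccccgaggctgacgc
Bnip3: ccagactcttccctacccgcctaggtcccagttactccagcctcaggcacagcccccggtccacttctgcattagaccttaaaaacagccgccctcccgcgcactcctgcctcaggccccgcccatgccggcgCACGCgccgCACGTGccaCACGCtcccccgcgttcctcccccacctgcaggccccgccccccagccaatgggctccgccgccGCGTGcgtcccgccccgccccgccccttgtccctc

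*Ddit4* held 1 ACGTG beginning 187 bases before its start and 1 GCGTG beginning 115 bases before it. The first *Pfkfb3* start had 1 ACGTG at 60 bases, and the second had 1 GCGTG at 122 bases and a palindromic CACGTG at 53 bases. *Bnip3* carried 3 GCGTG cores, at 117, 99 and 35 bases, and a CACGTG at 108 bases. Of the 32 measured genes, 29 matched an entry, with 42 promoters in all, while *Epas1*, *Ndrg1* and *Slc2a3* are named only. GCGTG was present in 22 of the 42 promoters (52.4%), against 28.2% of 32851 promoters of the same length, and ACGTG in 21 of 42 (50.0%), against 16.6%. Either core was present in 33 of 42 (78.6%), against 38.6% of all promoters. These matches describe letters in the window and are not binding sites. The list itself names genes that HIF is known to switch on, and some genes count with more than 1 start. The shares are therefore descriptive and were not tested.

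The comparison of *c*35 with WT cells asked how the genes differ between cells with and without an AHR able to bind DNA. A difference is called here where limma's Benjamini-Hochberg adjusted p was below 0.05 and the change exceeded 1.5-fold, and values are log2 signal unless a fold is named. In naive cells 5 of the 32 genes were called higher and 6 lower in *c*35, where 6.52% of all genes were called higher and 7.52% lower, 14.0% in all. With TCDD, 5 were called higher and 7 lower, where 6.32% and 8.65% of all genes were, 15.0% in all. With BaP, 11 were called higher and 6 lower, against 6.83% and 8.98% of all genes, 15.8% in all. The median log2 difference of the 32 genes was 0.16 for DMSO, 0.22 for TCDD and 0.35 for BaP, and that of all genes was 0.03 in each of the 3 comparisons. The arrays of the lines did not overlap for 13 genes that were higher and 10 that were lower in naive *c*35 cells, where 24.8% and 22.6% of all genes did the same. For TCDD these were 17 and 10 genes, against 26.2% and 25.2% of all genes, and for BaP 18 and 10 genes, against 26.6% and 24.3%. *Egln3*, *Hk1*, *Ndrg1* and *Pfkl* were called higher and *Epas1*, *Hif1a*, *P4ha2*, *Pfkfb3* and *Slc2a3* lower in *c*35 cells under all 3 treatments, and 29 of the 32 genes kept the sign of their difference in all 3. Without the 3 *c*35 arrays that stood apart, the naive calls of *Hk1* (0.47 log2) and *Higd1a* (0.87) and the BaP call of *Higd1a* were lost.

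**Figure D1:**
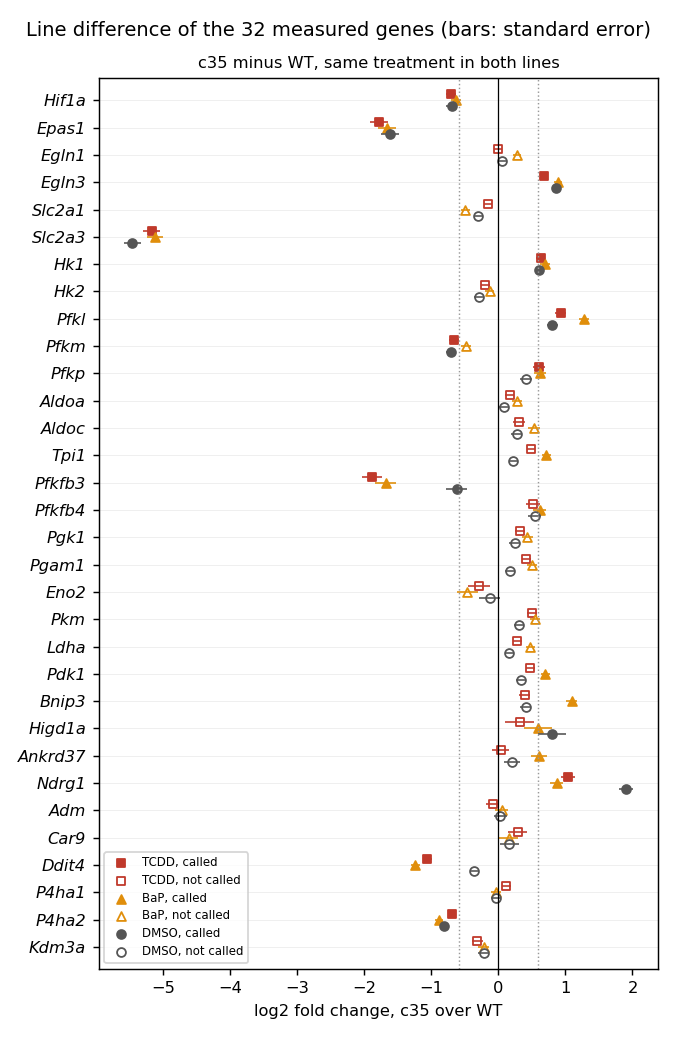
Log2 fold change of *c*35 over WT cells (x axis) for each of the 32 measured genes (y axis), with TCDD as squares, BaP as triangles and DMSO as circles. Bars are standard errors, filled symbols are called differences and dotted lines mark 1.5-fold. *Slc2a3* lies apart from all others near -5, and the 11 genes called higher with BaP lie right of the dotted line.

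Both HIF α subunits had lower mRNA signal in *c*35 cells. *Hif1a*, the subunit present in most cell types, had 11.27, 11.20 and 11.09 log2 on the naive *c*35 arrays, against 11.92, 11.87 and 11.87 on the naive WT arrays. The groups did not overlap, and the difference was -0.70 ± 0.08 log2 (SE, adjusted p = 4.3e-07, limma), or 1.62-fold lower. With TCDD the arrays read 11.17, 11.02 and 10.98 in *c*35 and 11.72, 11.75 and 11.84 in WT cells, and with BaP 11.23, 11.02 and 11.15 in *c*35 and 11.69, 11.96 and 11.67 in WT cells. The corresponding differences were -0.71 and -0.64 log2, so the size was close to that in naive cells. Of the 4 *Hif1a* probe sets 3 were lower in naive *c*35 cells, 2 of them called, and 1 was higher by 0.44 log2, which did not reach 1.5-fold. That opposing probe set was called higher in *c*35 cells with TCDD (0.75 log2, adjusted p = 0.0011) and read 0.44 log2 higher with BaP, so the direction depended on the probe set. Averaged over the 4 probe sets the difference was -0.47 log2 for DMSO, -0.34 for TCDD and -0.36 for BaP, all below 1.5-fold. The BaP difference also fell below 1.5-fold without *c*35 BaP replicate 2 (-0.58 log2) or WT BaP replicate 2 (-0.54).

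*Epas1*, which encodes HIF-2α, showed the larger difference of the pair. Its arrays read 5.74, 5.33 and 5.36 in naive *c*35 cells, against 7.17, 7.14 and 6.99 in naive WT cells, a difference of -1.62 ± 0.14 log2 (SE, adjusted p = 6.7e-09, limma). With TCDD *Epas1* had 5.70, 5.28 and 5.57 in *c*35 and 7.29, 7.28 and 7.31 in WT cells, and with BaP 5.09, 5.28 and 5.56 in *c*35 and 7.21, 6.86 and 6.86 in WT cells. Every *c*35 array thus lay below every WT array, by 3.44-fold on average with TCDD and 3.17-fold with BaP. The values came with no detection call, so whether the *Epas1* signal in *c*35 cells was above background is not known. A second *Epas1* probe set differed by only -0.10 log2 in naive cells and was not called.

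*Arnt*, the partner that HIF and AHR share, also had less signal in *c*35 cells. It read 7.21, 7.06 and 7.01 log2 in naive *c*35 cells, against 7.77, 7.90 and 7.83 log2 in naive WT cells, with no overlap. The *Arnt* difference was -0.74 log2 in naive cells (adjusted p = 1.9e-06), -0.99 log2 with TCDD (adjusted p = 3.2e-08) and -0.86 log2 with BaP (adjusted p = 2.3e-07, limma). Neither ligand changed *Arnt* past the threshold in WT cells, where TCDD and BaP each gave 0.19 log2.

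The 2 measured prolyl hydroxylases differed from each other. *Egln3*, itself a known HIF target that feeds back on HIF, had 10.68, 10.71 and 10.55 log2 on naive *c*35 arrays, against 9.76, 9.79 and 9.80 on naive WT arrays. It was 1.82-fold higher in naive *c*35 cells (0.86 ± 0.06 log2, SE, adjusted p = 4.4e-10), and both of its probe sets were called. With TCDD it read 10.57, 10.67 and 10.60 in *c*35 and 9.87, 9.96 and 9.98 in WT cells, and with BaP 10.63, 10.56 and 10.69 in *c*35 and 9.75, 9.75 and 9.71 in WT cells. The line differences of 0.68 and 0.89 log2 with ligand were called as well. *Egln1*, the prolyl hydroxylase held to be the main regulator of HIF-1α at normal oxygen, differed by 0.06 log2 for DMSO (95% interval -0.07 to 0.18), -0.01 for TCDD and 0.28 for BaP, none past 1.5-fold. A second *Egln1* probe set was 0.32, 0.29 and 0.62 log2 higher in *c*35 cells in the same order, and its value with BaP was called (adjusted p = 9.9e-07).

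The glucose transporter gene *Slc2a3*, which encodes the high-affinity GLUT3, had the largest difference of any of the 32 genes. Naive *c*35 arrays read 5.46, 5.38 and 5.08 log2, and naive WT arrays 10.78, 10.76 and 10.77. That was 44.1-fold lower in *c*35 cells (-5.46 ± 0.13 log2, SE, adjusted p = 2.1e-17, limma). No detection call accompanied the values, so whether the *c*35 signal was above background is not known. With TCDD the *c*35 arrays gave 5.82, 5.13 and 5.25 and the WT arrays 10.61, 10.50 and 10.62. With BaP they gave 5.62, 5.55 and 5.62 in *c*35 and 10.70, 10.80 and 10.67 in WT cells. The gap of about 5 log2 units was thus present under every treatment, -5.17 with TCDD and -5.13 with BaP. A second *Slc2a3* probe set differed by -5.04 log2 in naive cells, and the other 2 by -0.32 and -0.22 log2, neither called. *Slc2a1*, which encodes GLUT1, the transporter most widely used by growing cells, was lower in *c*35 cells by less than 1.5-fold, with -0.30 log2 for DMSO, -0.15 for TCDD and -0.49 for BaP.

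Among the first enzymes of glycolysis, *Hk1* and *Pfkl* were higher and *Pfkm* lower in *c*35 cells. Hexokinases trap glucose in the cell by phosphorylation. *Hk1* had 10.46, 10.44 and 10.23 log2 in naive *c*35 cells, against 9.86, 9.70 and 9.75 in naive WT cells, and was 1.53-fold higher (0.61 ± 0.07 log2, SE, adjusted p = 6.3e-07). It read 10.31, 10.32 and 10.34 in *c*35 and 9.76, 9.72 and 9.60 in WT cells with TCDD, and 10.27, 10.45 and 10.37 in *c*35 and 9.70, 9.63 and 9.68 in WT cells with BaP. The lines did not overlap in *Hk1* under any treatment, but the naive difference lay close to 1.5-fold and fell below it, to between 0.57 and 0.58 log2, without *c*35 DMSO replicate 1, without *c*35 DMSO replicate 2 or without WT DMSO replicate 2, and the TCDD difference did so without WT TCDD replicate 3 (0.58 log2). *Hk2*, the isoform most often raised by HIF in tumours, differed by -0.29 log2 for DMSO, -0.20 for TCDD and -0.13 for BaP, all below 1.5-fold.

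Phosphofructokinase, the committed step of glycolysis, is built from liver, muscle and platelet subunits. *Pfkl*, the liver subunit, read 10.66, 10.60 and 10.64 log2 in naive *c*35 cells, against 9.86, 9.83 and 9.80 in naive WT cells, and was higher in *c*35 by 0.81 ± 0.08 log2 (SE, adjusted p = 3.5e-08). With TCDD it had 10.61, 10.58 and 10.66 in *c*35 and 9.70, 9.71 and 9.65 in WT cells, and with BaP 10.56, 10.88 and 10.48 in *c*35 and 9.35, 9.36 and 9.39 in WT cells. The *Pfkl* difference was 0.93 log2 with TCDD and 1.28 with BaP, and all 3 of its probe sets were called higher in naive *c*35 cells. *Pfkm*, the muscle subunit, went the other way, with 7.97, 7.96 and 8.00 in naive *c*35 cells, against 8.74, 8.61 and 8.70 in naive WT cells (-0.71 ± 0.07 log2, SE, adjusted p = 1.2e-07). Its arrays gave 7.79, 8.04 and 8.03 in *c*35 and 8.57, 8.66 and 8.61 in WT cells with TCDD, and 8.09, 8.02 and 8.02 in *c*35 and 8.48, 8.49 and 8.61 in WT cells with BaP. The *Pfkm* difference of -0.66 log2 with TCDD was called and that of -0.48 with BaP was not, and the TCDD call was lost without *c*35 TCDD replicate 1 (-0.58 log2). *Pfkp*, the platelet subunit, had 7.90, 7.91 and 8.00 in *c*35 and 7.16, 7.51 and 7.33 in WT cells with TCDD, and 7.93, 8.00 and 7.89 in *c*35 and 7.39, 7.37 and 7.22 in WT cells with BaP. It was 1.52-fold higher in *c*35 with TCDD and 1.53-fold with BaP (adjusted p = 1.2e-05 and 9.4e-06). Both *Pfkp* calls were near the minimum change and were lost when single arrays were left out, with 0.52 log2 without WT TCDD replicate 1 and 0.57 without *c*35 TCDD replicate 3, and 0.56 without WT BaP replicate 3 and 0.58 without *c*35 BaP replicate 2. In naive cells *Pfkp* read 7.86, 7.89 and 8.00 in *c*35 and 7.62, 7.42 and 7.46 in WT cells, a difference of 0.42 log2 that was not called, while 1 of its other 2 probe sets was called, at 1.53 log2.

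The enzymes that make and break fructose 2,6-bisphosphate, the activator of phosphofructokinase, also split. *Pfkfb3*, whose product has mostly kinase activity, had 5.77, 5.77 and 5.46 log2 on naive *c*35 arrays, against 6.40, 6.09 and 6.37 on naive WT arrays, a difference of -0.63 ± 0.15 log2 (SE, adjusted p = 0.0029). That difference was smaller than 1.5-fold without *c*35 DMSO replicate 3 (-0.52 log2), without WT DMSO replicate 1 (-0.57), without WT DMSO replicate 3 (-0.58), or with both probe sets averaged (-0.25). With TCDD *Pfkfb3* read 4.84, 5.23 and 5.40 in *c*35 and 6.82, 7.18 and 7.13 in WT cells, and with BaP 5.42, 4.98 and 5.53 in *c*35 and 7.02, 7.09 and 6.87 in WT cells. The gap was therefore wider with ligand, at -1.89 log2 with TCDD and -1.68 with BaP. As for *Epas1*, whether the *Pfkfb3* signal in *c*35 cells was above background is not known. The tests of the wider gap are given with the ligand responses. A second *Pfkfb3* probe set had the opposite sign between the lines with DMSO, TCDD and BaP alike and was not called. The direction thus depended on the probe set. *Pfkfb4*, a related kinase and phosphatase that HIF is known to induce, had 7.08, 7.33 and 7.27 in *c*35 and 6.69, 6.35 and 6.81 in WT cells with BaP and was called there (0.61 ± 0.10 log2, SE, adjusted p = 3.9e-05). Without *c*35 BaP replicate 2 the *Pfkfb4* value was 0.56 log2 and without WT BaP replicate 2 it was 0.48, both below 1.5-fold. *Pfkfb4* had 7.17, 7.14 and 7.25 in *c*35 and 6.73, 6.64 and 6.64 in WT cells with TCDD, and 7.14, 7.23 and 7.09 in *c*35 and 6.61, 6.59 and 6.65 in WT cells with DMSO. These differences, 0.52 and 0.54 log2, were of similar size and were not called.

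From aldolase to lactate dehydrogenase, differences between the lines were small in naive cells. *Tpi1*, which interconverts the triose phosphates, was the 1 enzyme of this stretch that was called, and only with BaP. It read 13.11, 13.07 and 13.03 log2 in *c*35 cells and 12.36, 12.34 and 12.35 in WT cells with BaP, a 1.64-fold difference (0.71 ± 0.07 log2, SE, adjusted p = 2.6e-08). With TCDD the *Tpi1* arrays gave 13.01, 13.06 and 13.12 in *c*35 and 12.52, 12.60 and 12.61 in WT cells, and with DMSO 13.01, 12.96 and 13.00 in *c*35 and 12.96, 12.67 and 12.67 in WT cells. The lines did not overlap in *Tpi1* under any treatment, although with DMSO the lowest *c*35 array and WT DMSO replicate 1 both read 12.96. *Aldoa*, *Aldoc*, *Pgk1*, *Pgam1*, *Pkm* and *Ldha* were not called in any line comparison. In this order their naive log2 differences were 0.08, 0.27, 0.24, 0.17, 0.31 and 0.16, and with BaP they were 0.28, 0.53, 0.43, 0.50, 0.55 and 0.48. *Eno2*, the neuronal enolase, was dim on all arrays, between 3.13 and 4.01 log2. Over the 13 measured glycolytic enzymes the median difference was 0.22 log2 for DMSO, 0.32 for TCDD and 0.50 for BaP, with 10 of 13 positive each time. By the adjusted p alone, 7 of the 13 were higher and 2 lower in naive *c*35 cells, where 19.1% and 18.7% of all genes were. Without WT DMSO replicate 1 the naive median of the 13 was 0.32 log2, again with 10 of 13 positive.

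Beyond glycolysis, 3 genes that act on mitochondria were called. *Pdk1*, the kinase that shuts pyruvate out of the citrate cycle, had 8.06, 8.04 and 8.06 log2 in *c*35 and 7.47, 7.29 and 7.29 in WT cells with BaP, a difference of 0.70 ± 0.07 log2 (SE, adjusted p = 1e-07). It read 7.98, 8.16 and 8.20 in *c*35 and 7.63, 7.66 and 7.61 in WT cells with TCDD, and 8.11, 8.07 and 8.09 in *c*35 and 7.71, 7.80 and 7.75 in WT cells with DMSO. Those differences of 0.48 and 0.34 log2 were not called, and the mean over its 4 probe sets gave only 0.37 log2 with BaP. Of the 4 *Pdk1* probe sets only 2 were higher in *c*35 cells with TCDD and only 2 with DMSO, against 3 with BaP. *Bnip3*, an inducer of the removal of mitochondria by autophagy, had 10.34, 10.14 and 10.11 in *c*35 and 9.32, 9.06 and 8.92 in WT cells with BaP, 2.13-fold higher in *c*35 (1.09 ± 0.08 log2, SE, adjusted p = 1.4e-09). With TCDD it read 10.18, 10.26 and 10.18 in *c*35 and 9.80, 9.84 and 9.79 in WT cells, and with DMSO 10.11, 10.06 and 10.19 in *c*35 and 9.68, 9.75 and 9.71 in WT cells. The *Bnip3* differences were 0.40 and 0.41 log2, without overlap between the lines. *Higd1a*, a mitochondrial membrane protein, had 11.16, 11.21 and 11.29 in naive *c*35 cells, against 9.54, 10.97 and 10.76 in naive WT cells. Its difference of 0.80 ± 0.21 log2 (SE, adjusted p = 0.0057) rested on WT DMSO replicate 1 and was 0.35 log2 without it and 0.10 log2 with the *Actb* covariate, neither called. With TCDD *Higd1a* read 11.32, 11.35 and 11.23 in *c*35 and 11.02, 10.95 and 10.98 in WT cells, and with BaP 11.25, 11.50 and 11.24 in *c*35 and 10.81, 10.63 and 10.77 in WT cells. The *Higd1a* value with BaP was 0.59 log2 (adjusted p = 0.036) and was not called once any 1 of the 6 arrays compared was left out. Its other 2 probe sets differed by -0.47 and -0.32 log2 in naive cells, and -0.63 and -0.66 log2 with TCDD, where both were called lower, so the direction depended on the probe set.

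*Ndrg1* had the largest positive difference of the 32 genes in naive cells. *Ndrg1*, a stress-responsive growth suppressor, had 8.82, 8.80 and 8.42 log2 on naive *c*35 arrays, against 6.79, 6.89 and 6.63 on naive WT arrays, and was 3.75-fold higher (1.91 ± 0.10 log2, SE, adjusted p = 8.2e-12). All 5 *Ndrg1* probe sets were called higher in naive *c*35 cells, by 1.11 to 2.57 log2. With TCDD it read 8.31, 8.56 and 8.56 in *c*35 and 7.50, 7.39 and 7.41 in WT cells, and with BaP 8.60, 8.52 and 8.75 in *c*35 and 7.78, 7.78 and 7.70 in WT cells. The line difference was narrower there, 1.04 log2 with TCDD and 0.87 with BaP, with the WT arrays higher than in naive cells and the *c*35 arrays within the range of 8.31 to 8.82 log2. *Ddit4*, which restrains the growth kinase mTORC1 under stress, differed by -0.36 log2 in naive cells, below 1.5-fold, with the arrays given with the ligand responses. With TCDD the *Ddit4* difference was -1.06 and with BaP -1.24 log2, both called.

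*Ankrd37*, a small ankyrin-repeat protein, was called higher in *c*35 cells only with BaP, at 6.44, 6.13 and 6.28 log2 in *c*35 and 5.76, 5.73 and 5.53 in WT cells (0.61 ± 0.12 log2, SE, adjusted p = 0.00041). Without *c*35 BaP replicate 1 and without WT BaP replicate 3 this was 0.53 log2, and with the *Actb* 3′ to 5′ signal as a covariate 0.44, all below 1.5-fold. *P4ha2*, a collagen prolyl hydroxylase subunit, was lower in *c*35 cells throughout. It read 8.99, 9.05 and 8.94 in naive *c*35 cells, against 9.77, 9.87 and 9.78 in naive WT cells (-0.81 ± 0.06 log2, SE, adjusted p = 1.6e-09). With TCDD *P4ha2* had 8.90, 8.95 and 8.96 in *c*35 and 9.67, 9.61 and 9.61 in WT cells, and with BaP 8.81, 8.94 and 8.84 in *c*35 and 9.81, 9.67 and 9.78 in WT cells. These differences of -0.69 and -0.89 log2 were called as well. *P4ha1*, the other collagen prolyl hydroxylase subunit, differed by -0.04 log2 in naive cells, yet its second probe set was 1.85 log2 higher in naive *c*35 cells, 1.92 with TCDD and 1.67 with BaP, and was called each time. *Kdm3a*, a histone demethylase, *Adm*, a vasodilator peptide, and *Car9*, a membrane carbonic anhydrase, were not called in any line comparison, and *Adm* and *Car9* lay below the median signal of all probe sets.

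**Figure D2:**
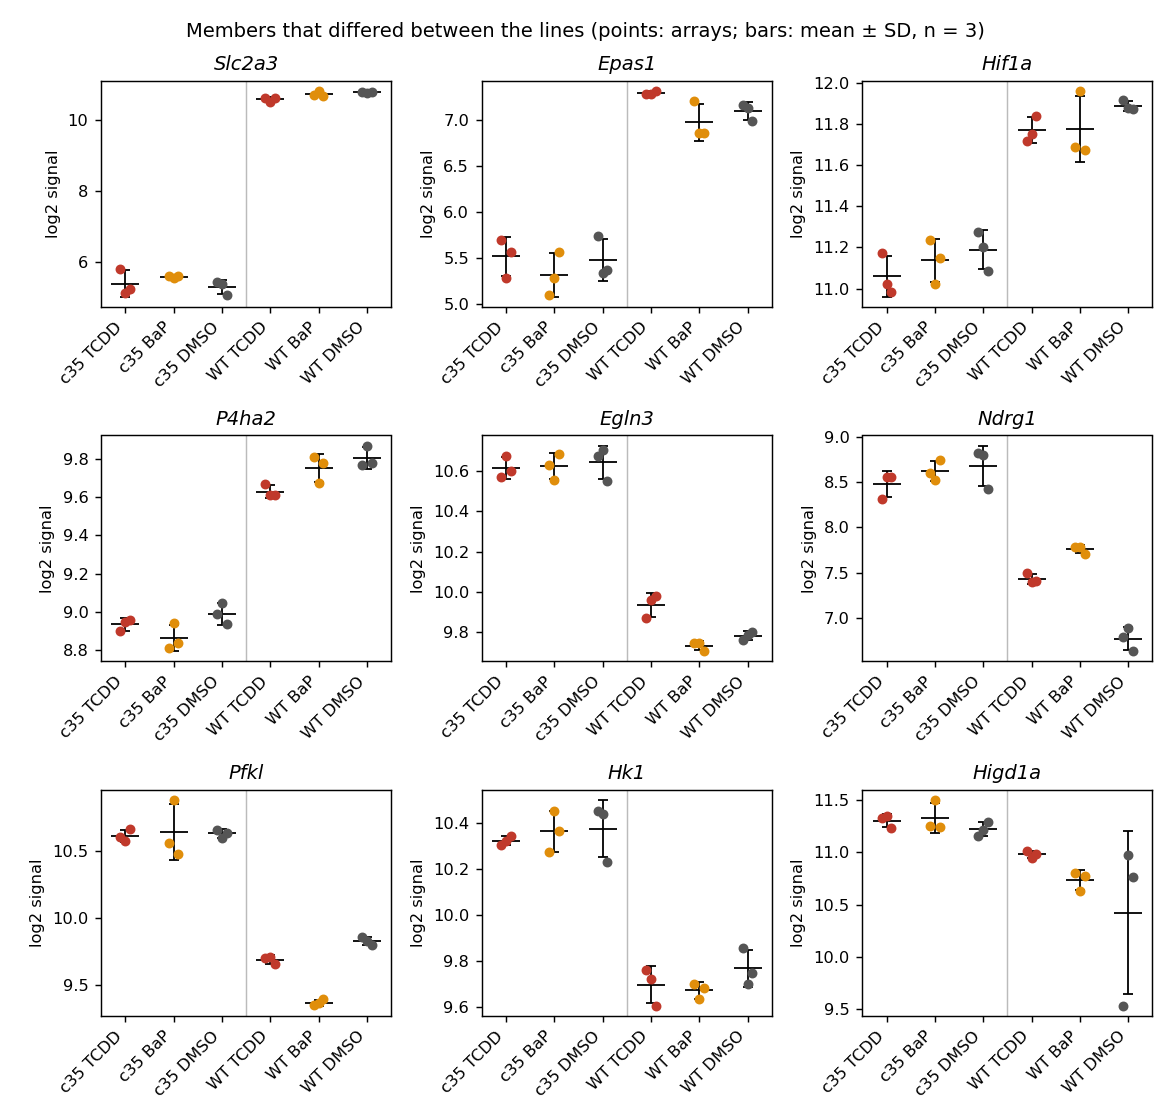
Log2 signal (y axis) of 9 genes on each array, by group on the x axis with *c*35 left of WT and TCDD, BaP and DMSO within each line. Points are arrays and bars the mean ± SD of 3 arrays. The lines do not overlap for any gene shown, WT DMSO replicate 1 is the low point of *Higd1a* at 9.54, and *Ndrg1* shows a step between WT ligand arrays (7.39 to 7.78) and WT DMSO arrays (6.63 to 6.89).

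The ligand comparisons asked which genes respond within 8 hr and whether the response needs DNA binding by AHR. In WT cells with TCDD 3 of the 32 genes were called higher and 0 lower, where 0.341% of all genes were called higher and 0.0385% lower, 0.379% in all. With BaP 3 were called higher and 1 lower, against 0.885% and 0.434% of all genes, 1.32% in all. The genes called higher were the same with both ligands, *Ndrg1*, *Ddit4* and *Pfkfb3*, and the gene called lower with BaP was *Bnip3*. The median change of the 32 genes was -0.08 log2 with TCDD and -0.13 log2 with BaP, and that of all genes 0.01 and 0.00. The TCDD and BaP comparisons share their DMSO arrays, so their values are given side by side and are not independent of each other. The other 29 genes with TCDD changed by -0.24 to 0.56 log2 and the other 28 with BaP by -0.46 to 0.43 log2.

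**Figure D3:**
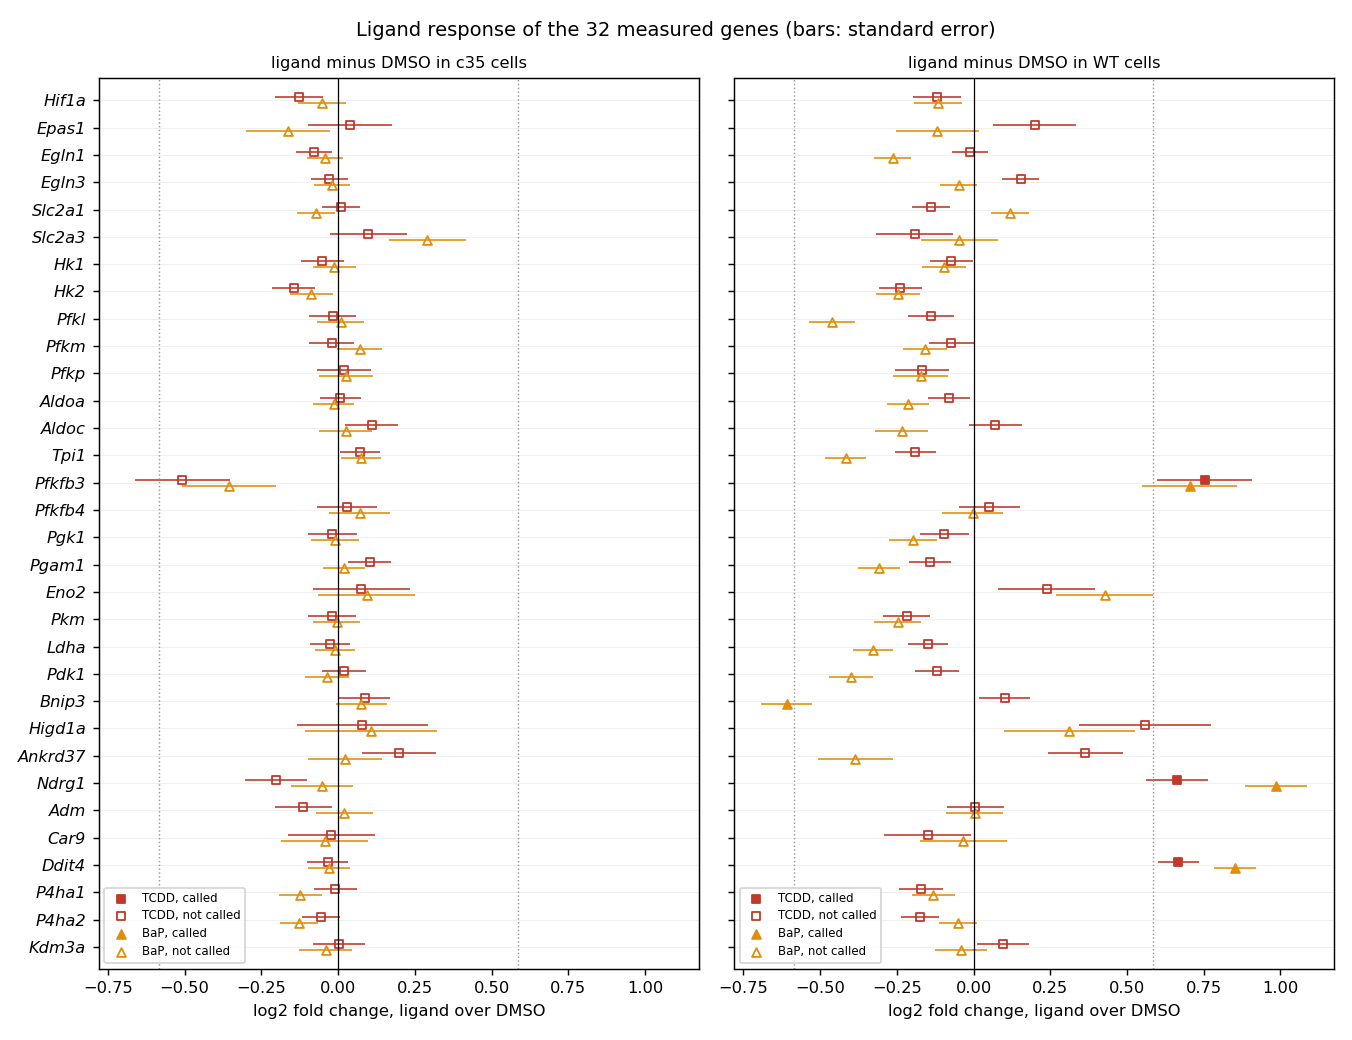
Log2 fold change of ligand over DMSO (x axis, same scale in both panels) for the 32 measured genes (y axis), in *c*35 cells on the left and WT cells on the right, with TCDD as squares and BaP as triangles. Bars are standard errors, filled symbols are called changes and dotted lines mark 1.5-fold. Filled symbols appear only in the WT panel, for *Pfkfb3*, *Ndrg1* and *Ddit4* on the right and *Bnip3* with BaP on the left.

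*Ndrg1* rose with both ligands in WT cells. Its arrays read 7.50, 7.39 and 7.41 log2 with TCDD and 7.78, 7.78 and 7.70 with BaP, against 6.79, 6.89 and 6.63 with DMSO. Neither ligand group overlapped the DMSO group. The rise was 0.66 ± 0.10 log2 with TCDD (SE, 1.58-fold, adjusted p = 0.0016) and 0.99 ± 0.10 with BaP (1.98-fold, adjusted p = 4.1e-06, limma). All 5 probe sets went up with each ligand, and 3 of them with TCDD and 4 with BaP were called. *Ndrg1* in *c*35 cells changed by -0.20 log2 with TCDD and -0.05 with BaP, neither called. The difference between the responses, *c*35 minus WT, was -0.86 ± 0.14 log2 for TCDD (adjusted p = 0.0069) and -1.04 ± 0.14 for BaP (SE, adjusted p = 0.00035). *Ndrg1* read 8.75 to 8.82 log2 on the 3 *c*35 arrays that stood apart in the AHR battery and 8.31 to 8.60 on the other 6. Without them its *c*35 changes were 0.06 log2 with TCDD and 0.14 with BaP, and the difference in response was -0.61 log2 with TCDD (not called, adjusted p = 0.427) and -0.84 log2 with BaP (called, adjusted p = 0.027). No WT array with ligand reached the *Ndrg1* level of any *c*35 array.

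*Ddit4* also rose with both ligands in WT cells. WT arrays read 10.89, 10.90 and 10.85 log2 with TCDD and 11.14, 11.01 and 11.03 with BaP, against 10.26, 10.14 and 10.22 with DMSO, so all ligand arrays lay above all DMSO arrays. The change was 0.67 ± 0.07 log2 with TCDD (SE, 1.59-fold, adjusted p = 1.4e-05) and 0.85 ± 0.07 with BaP (1.81-fold, adjusted p = 1.6e-07). In *c*35 cells *Ddit4* read 9.89, 9.71 and 9.84 with TCDD and 9.75, 9.83 and 9.88 with BaP, against 9.90, 9.92 and 9.73 with DMSO. These groups overlapped, and the change was -0.03 log2 with TCDD (95% interval -0.17 to 0.11) and -0.03 with BaP (-0.17 to 0.11). The responses differed between the lines by -0.70 ± 0.10 log2 for TCDD (SE, adjusted p = 0.00095) and -0.88 ± 0.10 for BaP (adjusted p = 2.4e-05). Without the 3 *c*35 arrays that stood apart the *Ddit4* difference in response was -0.58 log2 with TCDD (not called, adjusted p = 0.120) and -0.79 log2 with BaP (called, adjusted p = 0.0049), and no other alternative changed any of these calls. The upstream window of *Ddit4*, printed earlier, holds 1 ACGTG and 1 GCGTG core, and whether either takes part in the response was not tested.

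*Pfkfb3* rose with both ligands in WT cells. WT arrays had 6.82, 7.18 and 7.13 log2 with TCDD and 7.02, 7.09 and 6.87 with BaP, against 6.40, 6.09 and 6.37 with DMSO, without overlap. The change was 0.75 ± 0.15 log2 with TCDD (SE, adjusted p = 0.022) and 0.70 ± 0.15 with BaP (adjusted p = 0.0086). The TCDD call was lost without WT DMSO replicate 2 (0.65 log2), without WT TCDD replicate 2 (0.68) or replicate 3 (0.71), and when only the 2 groups compared were fitted (0.75). In *c*35 cells *Pfkfb3* had 4.84, 5.23 and 5.40 with TCDD and 5.42, 4.98 and 5.53 with BaP, against 5.77, 5.77 and 5.46 with DMSO, changes of -0.51 and -0.36 log2 that were not called (adjusted p = 0.962 and 0.9998). The responses of the lines differed by -1.26 ± 0.22 log2 for TCDD (SE, adjusted p = 0.0098) and -1.06 ± 0.22 for BaP (adjusted p = 0.012). Neither difference was called without the 3 *c*35 arrays that stood apart, which read 5.53 to 5.77 log2 in *Pfkfb3* against 4.84 to 5.46 on the other 6. Without them the *c*35 changes were -0.30 and -0.26 log2 and the differences -1.06 (adjusted p = 0.442) and -0.97 (adjusted p = 0.242), for TCDD and BaP in that order. A second *Pfkfb3* probe set changed by -0.07 log2 with TCDD and -0.09 with BaP in WT cells, and with the mean of both probe sets every *Pfkfb3* call in WT cells and between the responses was lost, at 0.34 log2 with TCDD, 0.31 with BaP, and -0.51 for the difference in response with each ligand.

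*Bnip3* fell with BaP and not with TCDD. WT arrays read 9.80, 9.84 and 9.79 log2 with TCDD and 9.32, 9.06 and 8.92 with BaP, against 9.68, 9.75 and 9.71 with DMSO. All BaP arrays lay below all DMSO arrays, by 1.52-fold on average (-0.61 ± 0.08 log2, SE, adjusted p = 0.00010), and without WT BaP replicate 3 the change was -0.52 log2, below 1.5-fold. With TCDD it was 0.10 log2 (95% interval -0.07 to 0.27). BaP changed *Bnip3* in *c*35 cells by 0.08 log2, and the responses to BaP differed between the lines by 0.68 ± 0.12 log2 (SE, adjusted p = 0.0027). That difference was 0.66 log2 without the 3 *c*35 arrays that stood apart and was then not called (adjusted p = 0.127). The *Bnip3* window printed earlier holds 3 GCGTG cores and a CACGTG.

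TCDD and BaP were compared directly in WT cells, at doses that differ, 5 nM and 5 µM. Of the 32 genes 2 were called higher with TCDD than with BaP and 0 lower, where 0.137% of all genes were called higher and 0.121% lower, 0.258% in all. One was *Bnip3*, higher with TCDD by 0.71 ± 0.08 log2 (SE, adjusted p = 0.00017). The other was *Ankrd37*, with 6.27, 6.69 and 6.31 log2 with TCDD and 5.76, 5.73 and 5.53 with BaP, 0.75 ± 0.12 log2 higher with TCDD (SE, adjusted p = 0.0032). The *Ankrd37* arrays of WT DMSO cultures, 5.90, 6.25 and 6.04, lay between those of the ligands without overlap, and neither the change of 0.36 log2 with TCDD nor that of -0.39 with BaP was called. *Ndrg1* and *Ddit4* were lower with TCDD than with BaP by less than 1.5-fold, -0.32 log2 (95% interval -0.53 to -0.11) and -0.19 (-0.33 to -0.04), and *Pfkfb3* differed by 0.05 (-0.27 to 0.37).

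**Figure D4:**
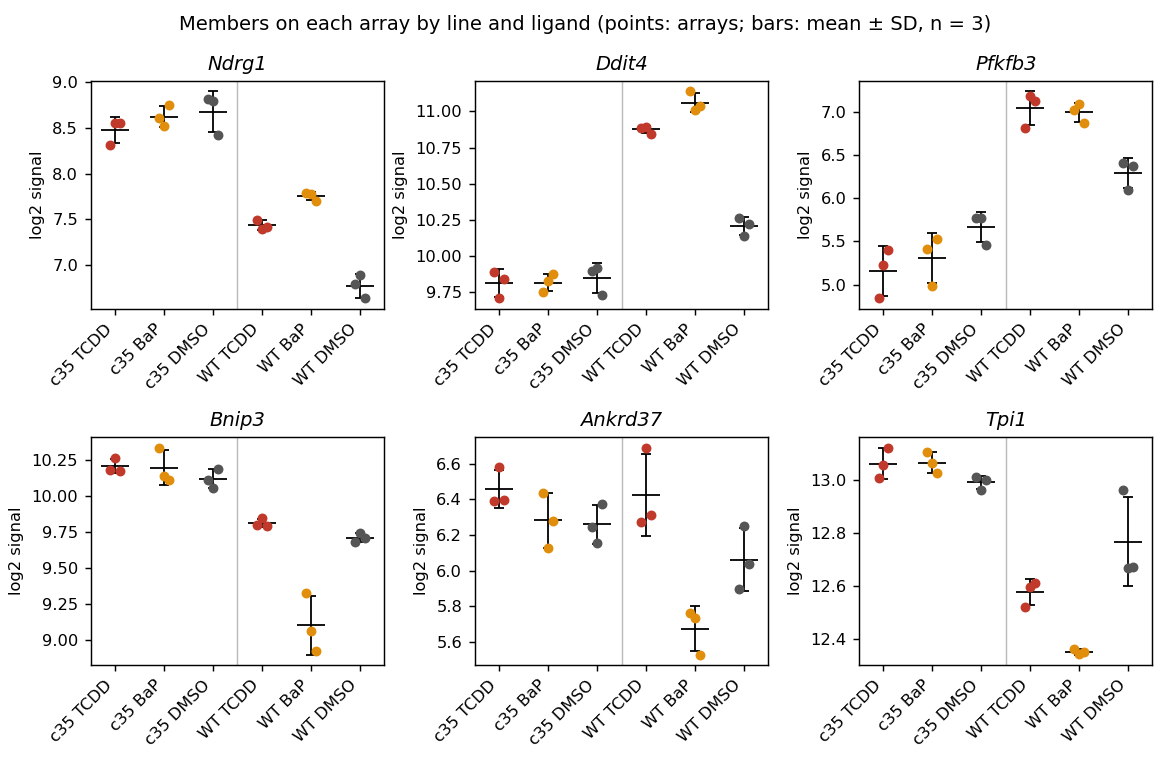
Log2 signal (y axis) of 6 genes on each array, by group on the x axis with *c*35 left of WT and TCDD, BaP and DMSO within each line. Points are arrays and bars the mean ± SD of 3 arrays. *Ndrg1*, *Ddit4* and *Pfkfb3* are higher with both ligands than with DMSO in WT cells, *Bnip3* is lowest with BaP in WT cells, and WT DMSO replicate 1 is the highest WT array of *Tpi1* at 12.96.

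The HIF subunits themselves did not respond past the threshold. In WT cells *Hif1a* changed by -0.12 log2 with TCDD (95% interval -0.28 to 0.04) and -0.12 with BaP (-0.28 to 0.05). *Epas1* changed by 0.20 log2 with TCDD (-0.08 to 0.48) and -0.12 with BaP (-0.40 to 0.17). In *c*35 cells *Hif1a* gave -0.13 and -0.05 log2 and *Epas1* 0.04 and -0.16 log2 with TCDD and BaP in that order.

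Of the 13 measured glycolytic enzymes, 12 had a lower mean with BaP than with DMSO in WT cells, with a median change of -0.23 log2, and none reached 1.5-fold. Without the 1.5-fold minimum 5 of the 13 were lower by the adjusted p, *Hk2*, *Pfkl*, *Tpi1*, *Pgam1* and *Ldha*, where 3.14% of all genes were lower. *Pfkl*, with 9.35, 9.36 and 9.39 log2 with BaP and 9.86, 9.83 and 9.80 with DMSO, changed by -0.46 ± 0.08 log2 (SE, adjusted p = 0.00070), and its 3 arrays with BaP lay below the 3 with DMSO. *Tpi1*, with 12.36, 12.34 and 12.35 with BaP and 12.96, 12.67 and 12.67 with DMSO, changed by -0.42 ± 0.07 log2 (adjusted p = 0.00050). *Ldha*, which turns pyruvate into lactate, read 12.78, 12.83 and 12.74 with BaP and 13.31, 13.00 and 13.03 with DMSO and changed by -0.33 ± 0.07 log2 (adjusted p = 0.0041). WT DMSO replicate 1 was the highest naive WT array for each of the 13 enzymes, *Pfkl* included, and it was also the array with the highest *Actb* 3′ to 5′ difference. Without it, 12 of the 13 were still negative, the median was -0.13 log2, and *Pfkl*, *Tpi1*, *Pgam1* and *Ldha* passed the adjusted p. With TCDD 11 of the 13 were negative, with a median of -0.14 log2, and 0 passed the adjusted p, where 0.264% of all genes were lower, and without WT DMSO replicate 1 this was 9 of 13 with a median of -0.05. The difference between the responses to BaP, *c*35 minus WT, was past the adjusted p alone for *Tpi1* (0.49 log2, adjusted p = 0.0067) and *Pfkl* (0.47, adjusted p = 0.026), both below 1.5-fold. Without the 3 *c*35 arrays that stood apart neither passed (0.50 log2, adjusted p = 0.182, and 0.54 log2, adjusted p = 0.134), and *Hk2* with BaP in WT cells did not either (adjusted p = 0.087). *Pdk1* too passed the adjusted p with BaP in WT cells, at -0.40 log2 (adjusted p = 0.0016), and *Egln1* at -0.26 (adjusted p = 0.010), both below 1.5-fold. Another of the 4 *Pdk1* probe sets was called lower there.

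In *c*35 cells none of the 32 genes was called with TCDD or with BaP by limma, and 0% of all genes were. The lowest adjusted p among the members was 0.962 with TCDD and 0.9998 with BaP. Before adjustment 1 member had a p below 0.05 for TCDD, as did 939 of all genes, and 2 members for BaP, as did 643 of all genes. Log2 changes ran from -0.51 to 0.20 with TCDD and from -0.36 to 0.29 with BaP, with the lowest value that of *Pfkfb3* each time. The highest were those of *Ankrd37* with TCDD and *Slc2a3* with BaP. Tested as a difference of responses, 3 of the 32 genes were called lower and 0 higher in *c*35 for TCDD, where 0.275% of all genes were called lower and 0.00550% higher, 0.280% in all. For BaP 3 were called lower and 1 higher, against 1.01% and 0.330% of all genes, 1.34% in all. Those genes were *Ndrg1*, *Ddit4* and *Pfkfb3* for both ligands and *Bnip3*, with the opposite sign, for BaP. Without the 3 *c*35 arrays that stood apart in the AHR battery, again 0 members were called in *c*35 cells with either ligand, and limma called 0 genes in all for TCDD, 1 gene for BaP and 0 of the 8 battery genes for either. Before adjustment 497 genes and 1 member then had a p below 0.05 for TCDD and 510 genes and 1 member for BaP, and the members changed by -0.30 to 0.32 and -0.26 to 0.50 log2. The count of members whose responses differed was then 0 for TCDD, where 16 of all genes were called, and 2 for BaP, *Ndrg1* and *Ddit4*, where 79 were. With 1 naive *c*35 array left, these counts rest on a less precise comparison. That array, DMSO replicate 3, lay with the ligand arrays in the battery genes by which the 3 arrays were picked. Whether it serves as a naive baseline was not tested.

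In the other lists of these pathways the counts called in naive cells are read against the 6.52% of all genes called higher and 7.52% called lower. Of 31 measured HIF targets outside the 32 genes, 5 were called higher and 4 lower in naive *c*35 cells. *Mxi1*, a repressor of the MYC network, was 1.87 log2 higher (adjusted p = 1.5e-12), while *Vldlr*, a lipoprotein receptor, differed by -2.77 log2 (adjusted p = 3.1e-14) and *Stc1*, a secreted glycoprotein, by -1.73 log2 (adjusted p = 4.4e-11, limma). Of 16 HIF partners and regulators 1 was called higher, the ubiquitin ligase gene *Siah2* (0.98 log2), and 3 lower, among them *Arnt* and the coactivator *Ep300* (-0.72 log2). In glycogen metabolism 0 of 13 genes were called higher and 3 lower, with *Ppp1r3c*, a glycogen-targeting subunit of protein phosphatase 1, at -2.06 log2, the branching enzyme *Gbe1* at -1.23 and *Ugp2*, which makes UDP-glucose, at -0.72. *Bpgm*, which makes 2,3-bisphosphoglycerate, was the 1 of 18 other glycolytic isoforms and glucose transporters that was called, at 1.24 log2. In the pyruvate dehydrogenase and citrate cycle list, *Sucla2*, a succinyl-CoA ligase subunit, was 0.74 log2 higher and *Pdk4*, a second kinase of pyruvate dehydrogenase, differed by -1.78 log2, of 28 genes. The pentose phosphate pathway and gluconeogenesis each had 1 gene called higher and 0 lower, *Pgls* (0.67 log2) of 9 and the mitochondrial phosphoenolpyruvate carboxykinase *Pck2* (0.72 log2) of 8. With TCDD the other HIF targets had 4 genes called higher and 6 lower in *c*35 cells, and with BaP 5 higher and 7 lower. The HIF partners had 1 higher and 4 lower with TCDD and 1 higher and 3 lower with BaP, and glycogen metabolism had 1 higher and 2 lower with each ligand, against shares over all genes of 15.0% and 15.8% in the 2 comparisons.

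With ligand in WT cells, the other HIF targets had 2 genes called higher and 0 lower with TCDD, and 3 higher and 1 lower with BaP, of 31, where 0.379% and 1.32% of all genes were called. *Ccng2*, an unconventional cyclin tied to growth arrest, read 8.62 to 8.71 log2 with TCDD and 8.88 to 9.11 with BaP, against 7.87 to 8.09 with DMSO, without overlap. It thus rose by 0.67 log2 with TCDD (adjusted p = 0.0080) and 0.99 log2 with BaP (adjusted p = 3.3e-05). *Selenbp1*, a selenium-binding protein, was 0.64 log2 higher with TCDD (adjusted p = 0.041) and 0.90 with BaP (adjusted p = 0.00058). *Ak4*, a mitochondrial adenylate kinase, went with *Bnip3* in being lower with BaP, with 7.65, 7.37 and 7.27 log2 with BaP and 8.13, 8.11 and 8.03 with TCDD, against 8.10, 8.18 and 8.10 with DMSO. The change of *Ak4* was -0.70 log2 with BaP (adjusted p = 1.4e-05) and -0.04 with TCDD. *H6pd*, which makes NADPH in the endoplasmic reticulum, rose with BaP by 0.89 log2 (adjusted p = 2.7e-06), and was 0.56 log2 higher with TCDD, below 1.5-fold. In glycogen metabolism BaP gave 1 gene called higher, *Ppp1r3b* (0.66 log2), and 1 called lower, *Ppp1r3c* (-0.86 log2). No gene of the HIF partners and regulators was called with either ligand in WT cells. The responses of *Ccng2* and *H6pd* differed between the lines with both ligands, by -0.88 and -0.73 log2 for TCDD and -1.09 and -0.98 log2 for BaP in this order (*c*35 minus WT, adjusted p between 0.00016 and 0.030). These differences, without the 3 *c*35 arrays that stood apart, were -0.62 and -0.52 log2 for TCDD, neither called (adjusted p = 0.426 and 0.573), and -0.97 and -0.76 for BaP, both called.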

How the data were processed

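The deposited values are log2 expression per probe set on 18 Affymetrix mouse genome arrays, which the authors made with RMA (background correction, quantile normalization and summary of probes, as named in the submitters' processing notes). Which version of RMA ran is not stated in the sources. RMA values carry no detection call, and precision is limited by the number of arrays. The study's methods describe 3 separate biological replicates in each group, and used limma with an intensity-based moderated test, a threshold of 0.05 on the adjusted p and of 1.5 on the fold. The same thresholds were kept. Here all 18 arrays entered 1 fit by limma 3.58.1 (lmFit and eBayes with an intensity trend, R 4.3.3), with Benjamini-Hochberg adjustment over 45037 probe sets after 64 control probe sets were left out. Of the 45101 probe sets, 34945 carried 1 gene symbol in the platform annotation, 932 several and 9160 none, and genes were named only from those with 1. Standard errors and 95% intervals are from this fit.

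Values on every array are given for genes called in any comparison and for *Hif1a* and *Epas1*, and from every other list at most the 3 called genes with the largest change are named, with *Arnt* always. The members, lists and tests were chosen with earlier results of these data known. The other lists were HIF partners and regulators, other HIF targets, other glycolytic isoforms and glucose transporters, glycogen metabolism, the pentose phosphate pathway, gluconeogenesis, pyruvate dehydrogenase and the citrate cycle, the AHR battery, and markers of hepatocytes, fibroblasts, leukocytes and endothelium. The fit was tested on simulated data. Alternatives were a gene's probe sets averaged, the *Actb* 3′ minus 5′ signal as a covariate, array weights, no dim probe sets, no minimum change, median centring, quantile normalization, no intensity trend, the replicate block, a fit of the compared groups alone, leaving out every array once and, chosen after seeing the data, leaving out 3 *c*35 arrays together. Chromatin binding and PCR measurements were not analysed here. Tables and plots used python 3.11.15, pandas 2.3.3 and matplotlib 3.10.9.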

Additional observations from a re-analysis of the deposited data

Results flagged for a closer look

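For 4 of the 32 genes the response to a ligand differed between the lines by the test of the difference itself (*c*35 response minus WT response, limma, adjusted p below 0.05 and more than 1.5-fold). With TCDD the difference was -1.26 log2 for *Pfkfb3*, -0.86 log2 for *Ndrg1* and -0.70 log2 for *Ddit4*. With BaP it was -1.06 log2 for *Pfkfb3*, -1.04 log2 for *Ndrg1* and -0.88 log2 for *Ddit4*, and 0.68 log2 for *Bnip3*. Without the 3 *c*35 arrays that stood apart in the AHR battery (DMSO replicates 1 and 2 and BaP replicate 3), a fit chosen after seeing the data, only the BaP differences of *Ndrg1* (-0.84 log2) and *Ddit4* (-0.79) were called. With TCDD the values were then -1.06 log2 for *Pfkfb3*, -0.61 for *Ndrg1* and -0.58 for *Ddit4*, and with BaP -0.97 for *Pfkfb3* and 0.66 for *Bnip3*. Groups of 3 arrays were too small for the test of single high or low arrays.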

How the results depend on the processing

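With no minimum change, the members called numbered 22 in naive *c*35 against WT cells, 23 with TCDD and 27 with BaP, 11 for BaP in WT cells and 5 for TCDD against BaP. In naive cells 13 were higher and 9 lower, where 19.1% and 18.7% of all genes were. For BaP in WT cells 3 were higher and 8 lower, where 3.14% of all genes were lower. Fits chosen after seeing the data, with no minimum change, gave 25 members in naive cells and 11 for BaP in WT cells without WT DMSO replicate 1, and 19 and 13 with the *Actb* covariate. Shares of all genes are not given for the other counts with no minimum change. Those counts show how the calls depend on the rule and are not read as a result about these genes. The sign turned with the mean of all probe sets for *Higd1a* in naive cells (-0.000147 log2) and with BaP (-0.0741) and for *Epas1* with BaP in WT cells (0.0159), and with the *Actb* covariate for *Higd1a* with BaP (-0.0904). The cause was not tested. Leaving out each array in turn gave 9 to 10 members called in naive cells, 11 to 12 with TCDD, 13 to 17 with BaP, 2 to 3 for TCDD and 3 to 4 for BaP in WT cells, 2 for TCDD against BaP, 3 and 4 for the differences in response to TCDD and BaP, and 0 in *c*35 cells. With the replicate number as a block the counts were 11, 12 and 17 between the lines, 3 and 4 in WT cells, 2 for TCDD against BaP, 0 and 0 in *c*35 cells and 3 and 4 for the differences in response, equal to those without it. The numbers did not pair the arrays, since deviations of arrays with 1 number correlated at -0.26 to 0.22, and every array correlated best with its own number only in *c*35 against WT cells with TCDD. Leaving out *c*35 DMSO replicates 1 and 2 and *c*35 BaP replicate 3, chosen after seeing the data, lost calls between the lines for DMSO and BaP. Calls were also lost in the differences in response to both ligands, as given with those results. The calls in WT cells stayed the same, and *c*35 cells again had no member called. At an adjusted p of up to 0.1 and no minimum change, *c*35 cells still had 0 members called.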
